A study of Mus musculus with 12 samples.

Results

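The tumour suppressor p53, encoded in the mouse by Trp53, was followed together with 32 genes counted among its targets or regulators, 33 genes in all. The tested table of the series held 19507 genes and unnamed transcripts, 32 of them members. The members were taken by gene symbol, after the accession of each array probe had been matched to RefSeq. They comprised 5 core and feedback genes, 12 genes of cell death, 8 genes of arrest and growth control, 5 genes of DNA repair and 3 other targets. Members and roles were chosen with earlier results of these data known, so shares of members or roles describe and do not test. Each of the 32 tested members was well above background on all 12 arrays. The remaining one, Gadd45a, had a spot called an outlier by the scanner software on WT late replicate 3, and its values on the other 11 arrays are given apart.

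The samples were primary mouse embryonic fibroblasts, cells grown out of embryos of stage E12.5. The groups were Itpr2 knock-out (KO) after 5 passages (KO late), wild type after 5 passages (WT late), Itpr2 knock-out after 3 passages (KO early) and wild type after 3 passages (WT early), with 3 arrays each. Itpr2 encodes a receptor channel through which inositol trisphosphate frees stored calcium, and no further allele, treatment, strain or sex is given in the labels, nor the deleted part of the gene. Per the design text, the cultures came from 3 independent animals of each genotype, but the labels do not say whether early and late arrays with the same number share an animal. Each of the 3 slides carried 1 array of every group, and a group sat in the same position on every slide, so that position and group cannot be told apart.

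On an array, 59.1% to 67.5% of the 39429 probes passed the scanner software's background call. The probe for Itpr2 itself read 1.75, 1.83 and 1.72 on KO late arrays and 1.53, 1.74 and 1.56 on WT late arrays, in log2 units relative to the 75th percentile of the array, the scale of every level below. It read 1.12, 1.36 and 1.58 on KO early arrays and 1.23, 0.96 and 0.66 on WT early arrays. The signal was thus not lower under the KO label, and since nothing in the labels places the probe inside or outside the deleted part, the genotypes below are those of the labels. Xist, transcribed from the inactive X chromosome, was above background on KO late replicates 1 and 2, WT late replicate 1 and WT early replicate 1. The Y-linked Ddx3y read -0.14, -7.56 and 0.95 on KO late replicates 1 to 3, so the KO late arrays did not share 1 pattern of sex-linked genes, and KO late replicate 1 carried both transcripts. On KO early replicates 1 to 3 it read 0.76, 0.76 and 0.82. KO late replicates 1 and 2 thus differed in sex-linked genes from the KO early arrays of the same number. In WT, Ddx3y read -7.43, 0.83 and 0.88 on early and -7.05, 0.82 and 0.95 on late arrays, the same pattern by number. All 12 fibroblast markers looked at were kept, with sums between 650 and 937 times the 75th percentile.

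In unstressed cells p53 is made and destroyed continuously, because MDM2 tags it for degradation. DNA damage, oncogene activity or culture stress stabilises it, and it then activates genes that halt division, repair DNA or kill the cell, and also Mdm2, which closes a feedback loop. In mouse embryonic fibroblasts this pathway is known for limiting growth as cells are passaged under the oxygen of room air.

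p53 binds DNA at pairs of a decamer half-site, and the promoters of the members were searched for that consensus. RefSeq promoters on GRCm38.p6, each running from 250 bases before to 50 bases after a start site, were at hand for 25 of the 33 members. The p53 consensus decamer, read on both strands and equal to its own reverse complement as a pattern, occurred in 10 of these 25 genes (40%), against 9.55% of the 27025 genes in the RefSeq table. Those 10 were Aen, Bax, Ccng1, Ei24, Gadd45a, Mdm2, Polk, Ppm1d, Sesn1 and Trp53. A full site was defined as 2 decamers with a gap of up to 13 bases. It was found in 0 of the 33 promoters of these 25 genes, against 0.0731% of all 32851 promoters. At so low a share, 0 among 33 promoters does not set the members apart. Among the members that were lower on KO late arrays, Mdm2 and Ccng1 held a decamer in this window and Dyrk3 and Gdf15 held none. For Pmaip1, also lower, no promoter was at hand. The response elements known for Mdm2 lie in its first intron, outside the window. The promoters below are shown because their genes gave the results that follow: Mdm2 (chr10:117710709-117711008, minus strand), Ccng1 (chr11:40755237-40755536, minus strand), Bax (chr7:45466849-45467148, minus strand), Gadd45a (chr6:67037358-67037657, minus strand) and Dyrk3 (chr1:131138185-131138484, minus strand). They run 5′ to 3′, and capitals mark the decamer, whose first base lies 186 bases before the start site in Mdm2, 185 in Ccng1, 201 in Bax and 40 in Gadd45a.
Mdm2: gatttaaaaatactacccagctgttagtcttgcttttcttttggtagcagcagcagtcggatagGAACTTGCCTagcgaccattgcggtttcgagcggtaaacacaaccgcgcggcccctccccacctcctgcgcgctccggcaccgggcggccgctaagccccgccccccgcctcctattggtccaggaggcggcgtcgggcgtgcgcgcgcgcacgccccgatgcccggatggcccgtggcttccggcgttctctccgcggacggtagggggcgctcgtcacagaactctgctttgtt
Ccng1: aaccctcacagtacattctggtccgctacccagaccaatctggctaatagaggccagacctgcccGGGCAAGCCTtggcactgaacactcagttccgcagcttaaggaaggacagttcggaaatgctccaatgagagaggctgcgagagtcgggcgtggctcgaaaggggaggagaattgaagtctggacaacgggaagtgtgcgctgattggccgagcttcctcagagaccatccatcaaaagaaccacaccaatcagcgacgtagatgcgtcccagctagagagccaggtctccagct
Bax: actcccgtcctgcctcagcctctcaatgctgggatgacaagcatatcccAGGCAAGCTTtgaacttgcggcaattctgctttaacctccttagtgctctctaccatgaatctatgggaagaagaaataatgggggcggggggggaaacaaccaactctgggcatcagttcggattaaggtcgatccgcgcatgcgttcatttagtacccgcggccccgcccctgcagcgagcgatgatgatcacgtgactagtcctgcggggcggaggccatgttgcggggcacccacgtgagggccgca
Gadd45a: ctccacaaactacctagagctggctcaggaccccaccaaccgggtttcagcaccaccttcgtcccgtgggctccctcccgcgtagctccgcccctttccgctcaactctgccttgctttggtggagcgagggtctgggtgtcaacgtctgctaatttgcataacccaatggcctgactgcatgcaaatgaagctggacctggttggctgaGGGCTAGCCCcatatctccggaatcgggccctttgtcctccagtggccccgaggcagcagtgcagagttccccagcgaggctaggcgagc
Dyrk3: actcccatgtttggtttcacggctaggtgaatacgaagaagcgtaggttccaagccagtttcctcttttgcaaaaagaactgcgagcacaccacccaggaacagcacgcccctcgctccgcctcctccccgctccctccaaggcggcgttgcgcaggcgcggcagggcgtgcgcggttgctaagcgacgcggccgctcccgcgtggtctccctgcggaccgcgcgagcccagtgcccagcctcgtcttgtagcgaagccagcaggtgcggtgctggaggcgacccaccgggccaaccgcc

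At late passage, 5 of the 32 tested members were lower under the KO label than in WT and 0 were higher, at an adjusted p under 0.05 (limma, Benjamini-Hochberg over all genes). The 5 were Dyrk3, Pmaip1, Gdf15, Ccng1 and Mdm2, and they came from 3 of the 5 roles. This is 15.6% of the members lower, against a background of 4.37% of all 19507 genes called lower and 3.46% called higher. The median difference of the members was -0.20 on the log2 scale, against -0.0081 over all genes, and 24 members had a negative and 8 a positive difference. An unadjusted p under 0.05 was found for 13 members (40.6%), against 24.9% of all genes. The 3 KO late values lay below all 3 WT late values for 16 members, or 50%, against 20.3% of all genes, and above them for 1 member, Ddb2, against 19% of all genes. The level of a transcript in these cultures is an average over all cells, and fewer cells of a type and less RNA per cell cannot be told apart.

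**Figure D1:**
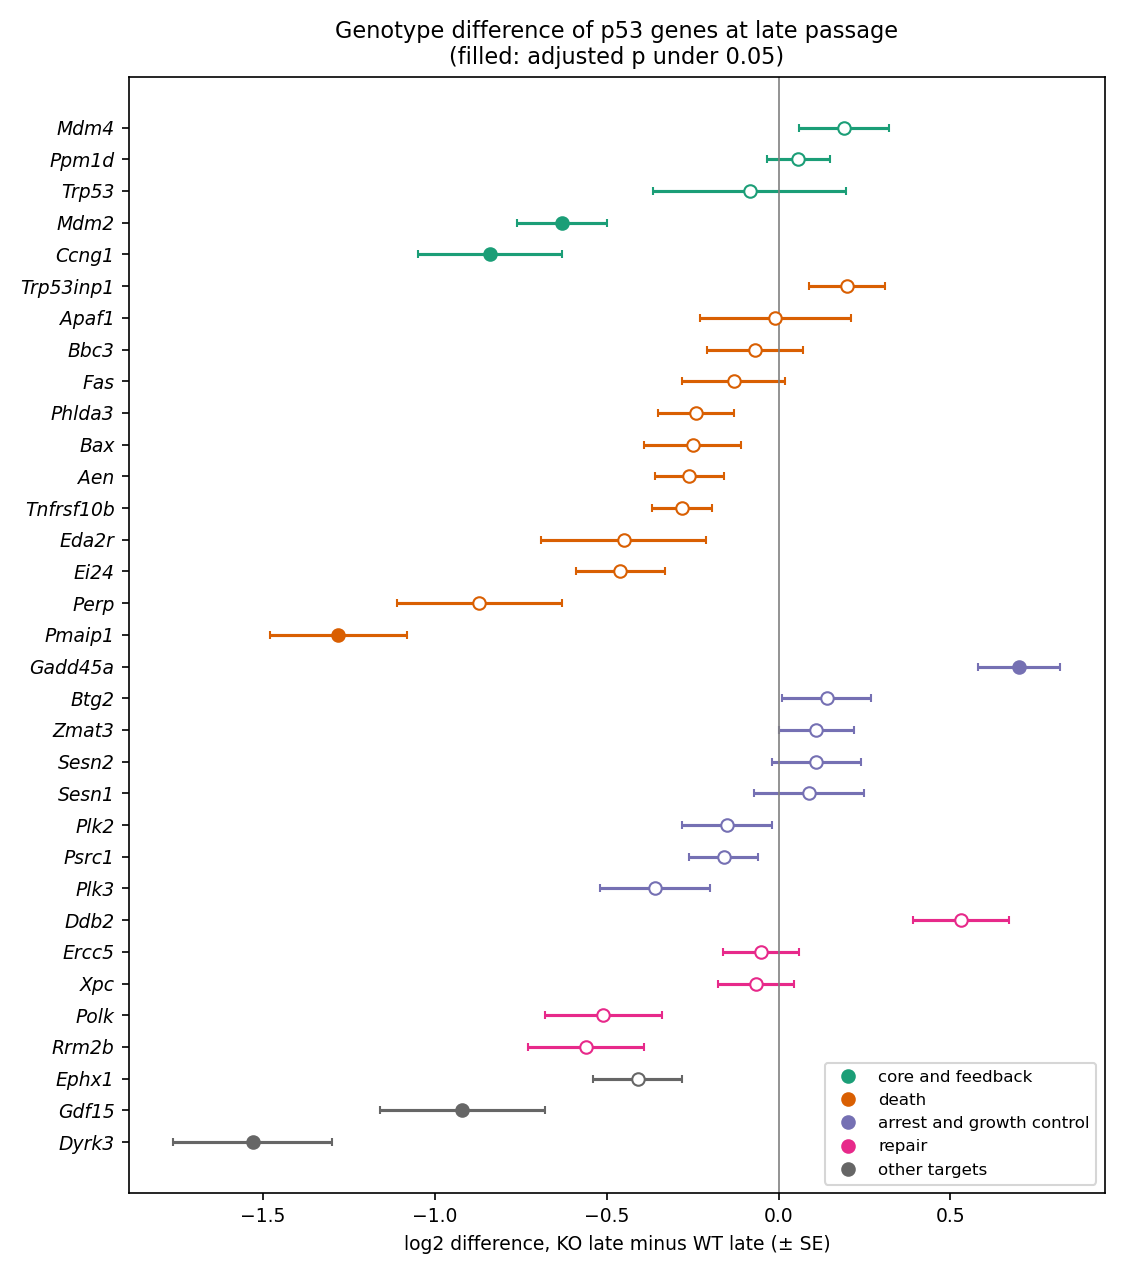
The log2 difference of KO late minus WT late arrays (horizontal axis, ± SE) is plotted for each of the 33 members, coloured by role and sorted within a role, with filled points where the adjusted p was under 0.05 (3 arrays per group; Gadd45a from 11 arrays). Dyrk3 at -1.53 and Pmaip1 at -1.28 lie farthest to the left, and Gadd45a at 0.70 farthest to the right.

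Trp53 itself, the core of the pathway, read -0.82, -0.89 and -0.62 on KO late arrays, against -0.73, -0.71 and -0.64 on WT late arrays. Both late groups overlapped, and the difference was -0.08 ± 0.28 (SE; adjusted p = 0.89). KO early arrays read -0.67, -0.61 and -0.59, and WT early arrays read -0.85, -1.03 and 0.33. The last value, of WT early replicate 3, stood above the other 11 arrays, which lay between -1.03 and -0.59, and it widened the SE of every Trp53 difference, since 1 spread per gene was pooled over the 4 groups. The transcript level says nothing of the protein, which is regulated mainly by its stability.

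Mdm2, the ubiquitin ligase of the feedback loop, read 3.71, 3.72 and 3.71 on KO late arrays, against 4.22, 4.22 and 4.58 on WT late arrays. The groups did not overlap, and Mdm2 was 1.54-fold lower in KO late arrays, a difference of -0.63 ± 0.13 (adjusted p = 0.023). On early arrays it read 4.45, 4.19 and 3.94 under the KO label and 4.21, 4.23 and 4.22 in WT. The KO late values lay below all other arrays. The adjusted p rose above 0.05 when WT late replicate 3 or any KO late replicate was left out, to at most 0.089.

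Ccng1, a cyclin-like p53 target that recruits a phosphatase to MDM2, read 2.71, 2.76 and 2.76 on KO late arrays, against 3.15, 3.51 and 4.10 on WT late arrays. It was 1.79-fold lower in KO late arrays, with a difference of -0.84 ± 0.21 (adjusted p = 0.040). Within the 3 slides the difference was -0.44, -0.75 and -1.33, negative each time but uneven in size, and with the replicate block the adjusted p was 0.067. Its early values were 3.92, 3.64 and 3.38 under the KO label and 3.61, 3.72 and 3.48 in WT. Leaving out any of the late arrays but WT late replicate 1 took the call away, with an adjusted p of at most 0.13.

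The other feedback genes gave no call. Mdm4, whose product binds and blocks p53, differed by 0.19 ± 0.13 (adjusted p = 0.42), and Ppm1d, a phosphatase that switches off damage signalling, by 0.06 ± 0.09 (adjusted p = 0.75). For both, the 2 late groups overlapped.

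Of the 12 death genes, 1 fell at late passage under the KO label (8.33%, against 4.37% of all genes). A negative difference was found for 11 of them, against 10014 of all 19507 genes. Their median difference was -0.25. Pmaip1, which encodes the BH3-only protein NOXA, read 1.31, 1.23 and 1.37 on KO late arrays, against 2.88, 2.32 and 2.55 on WT late arrays. The groups stood well apart, and Pmaip1 was 2.43-fold lower in KO late arrays (-1.28 ± 0.20, adjusted p = 0.0085). KO early arrays read 2.47, 2.02 and 1.63 and WT early arrays read 2.37, 2.06 and 2.32. The call held when each late array in turn was left out, with an adjusted p of 0.043 at most.

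Perp, a membrane protein that p53 induces in dying cells and that also takes part in epithelial adhesion, read 2.70, 2.90 and 2.41 on KO late arrays, against 3.34, 3.63 and 3.64 on WT late arrays. The groups did not overlap, but the difference of -0.87 ± 0.24 narrowly missed the threshold (adjusted p = 0.054). Ei24, a protein of the endoplasmic reticulum, was just as close at -0.46 ± 0.13 (adjusted p = 0.052). An unadjusted p under 0.05 (limma) was reached by 5 death genes (41.7%), against 24.9% of all genes. They were these 2 together with Pmaip1, the death receptor gene Tnfrsf10b and the nuclease gene Aen. The pore-forming protein gene Bax differed by -0.25 ± 0.14 (adjusted p = 0.32) and the BH3-only gene Bbc3, which encodes PUMA, by -0.07 ± 0.14 (adjusted p = 0.81). Trp53inp1, a stress protein gene, was the one death gene with a positive difference, 0.20 ± 0.11 (adjusted p = 0.31), and its second probe gave -0.0033. The remaining death genes ran from -0.45 ± 0.24 for Eda2r, through -0.24 ± 0.11 for Phlda3 and -0.13 ± 0.15 for Fas, to -0.009 ± 0.22 for Apaf1, with adjusted p from 0.21 to 0.99.

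**Figure D2:**
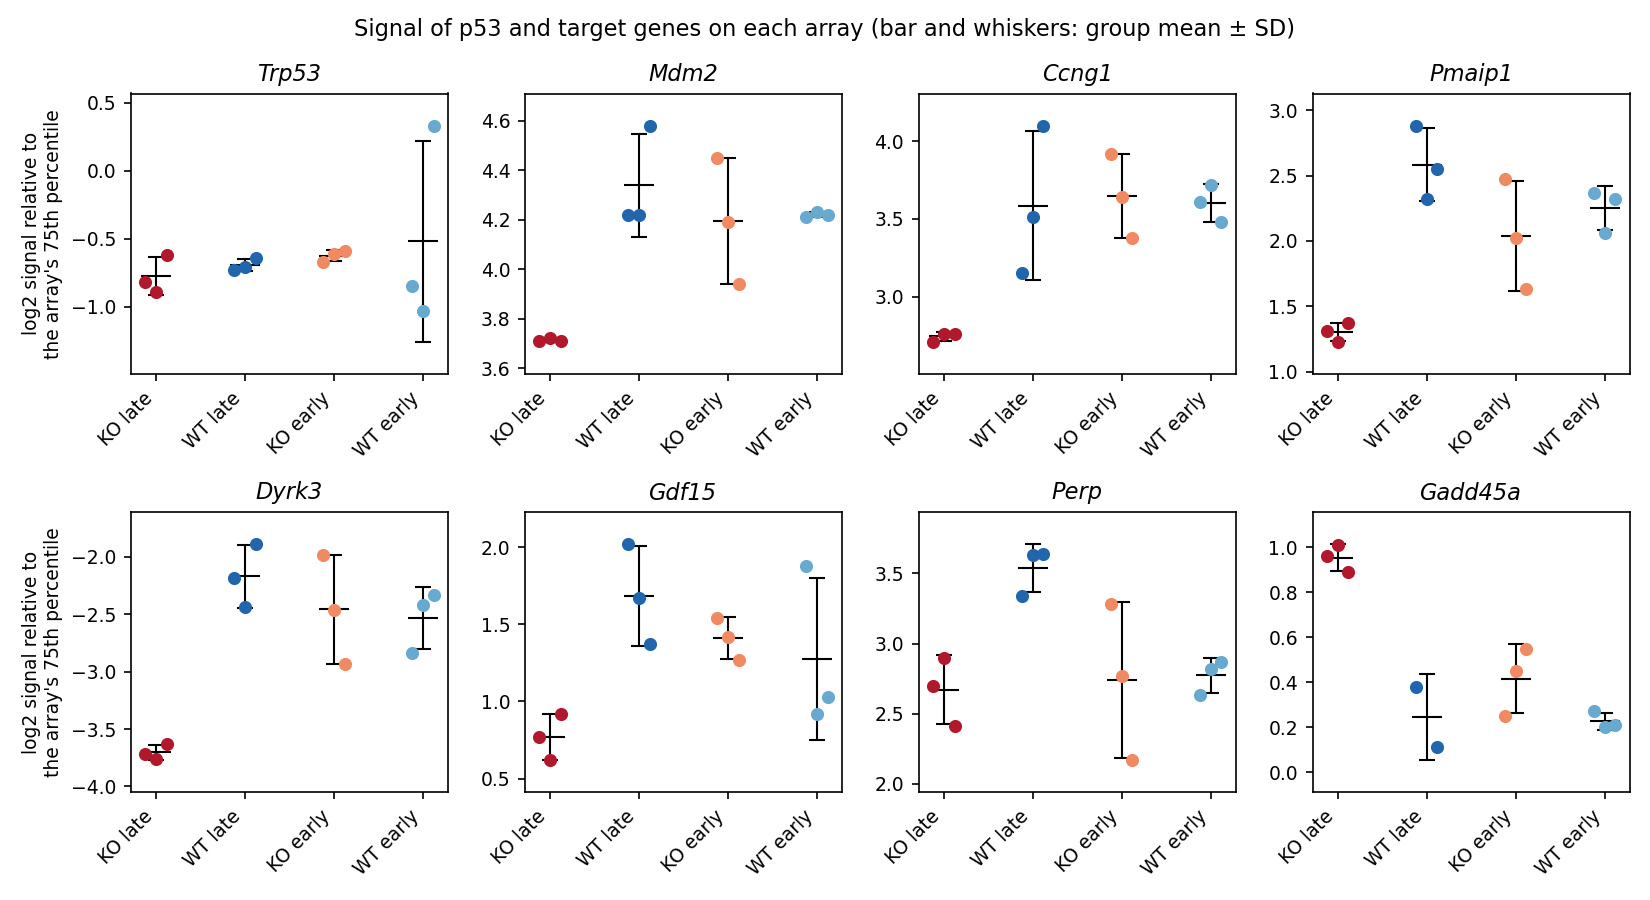
Each panel shows the log2 signal of 1 gene relative to the 75th percentile of the array (vertical axis), with 1 point per array in KO late, WT late, KO early and WT early arrays, and a bar with whiskers for the mean ± SD of a group. In the panels of Mdm2, Ccng1, Pmaip1, Dyrk3 and Gdf15 the 3 KO late points lie below the 3 WT late points, and in that of Gadd45a, with 2 WT late points, above them.

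None of the 7 tested genes of arrest and growth control passed the threshold at late passage, and their differences ran from -0.36 to 0.14 with a median of 0.089. The smallest adjusted p among them was 0.20, that of Plk3, and 0 had an unadjusted p under 0.05 (limma), against 24.9% of all genes. Sesn1 and Sesn2, sestrins that restrain growth signalling, differed by 0.09 ± 0.16 and 0.11 ± 0.13, and Zmat3, an RNA-binding protein gene, by 0.11 ± 0.11. Plk2, a polo-like kinase gene, differed by -0.15 ± 0.13, the antiproliferative gene Btg2 by 0.14 ± 0.13 and Psrc1, whose product binds microtubules, by -0.16 ± 0.10.

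Gadd45a, a stress sensor that halts cells before mitosis, stood apart. It read 0.96, 1.01 and 0.89 on KO late arrays, against 0.38 and 0.11 on WT late replicates 1 and 2. KO early arrays read 0.25, 0.45 and 0.55 and WT early arrays 0.27, 0.20 and 0.21. Every KO late value was thus above the other 8 values used. With the outlier spot treated as missing, a fit chosen after seeing the data, Gadd45a was 1.63-fold higher in KO late than in WT late arrays (0.70 ± 0.12, adjusted p = 0.012). The same fit to the authors' deposited table, which keeps the array with the outlier spot, turned the direction and gave -0.59 ± 0.81 (adjusted p = 0.70). The genotype difference of Gadd45a therefore depends on the outlier spot.

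Of the 5 repair genes, 0 passed the threshold at late passage. An unadjusted p under 0.05 (limma) was found for 3 (60%), against 24.9% of all genes. Ddb2, which recognises ultraviolet damage, read -2.22, -2.16 and -2.05 on KO late arrays, against -2.89, -2.47 and -2.65 on WT late arrays. It was the member with all KO late values above all WT late values, and its difference was 0.53 ± 0.14 (adjusted p = 0.052). It was called higher with quantile normalization, with normexp background correction of the median signals followed by quantile normalization, and with the replicate block (adjusted p = 0.027). The translesion polymerase gene Polk and the ribonucleotide reductase subunit gene Rrm2b had negative differences of -0.51 ± 0.17 (adjusted p = 0.090) and -0.56 ± 0.17 (adjusted p = 0.074). Xpc and Ercc5, nucleotide excision repair genes, differed by less than 0.1 on the log2 scale in size.

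Of the 3 other targets, 2 fell at late passage under the KO label (66.7%, against 4.37% of all genes). This share is descriptive, since the roles were chosen with earlier results of these data known. Dyrk3, a kinase that dissolves cytoplasmic condensates, read -3.72, -3.76 and -3.63 on KO late arrays, against -2.18, -2.44 and -1.89 on WT late arrays. It was 2.89-fold lower in KO late arrays, with a difference of -1.53 ± 0.23 (adjusted p = 0.0066), and the within-slide differences of -1.54, -1.32 and -1.74 were close to each other. Early arrays read -1.98, -2.46 and -2.93 under the KO label and -2.84, -2.42 and -2.33 in WT. The call held without any single late array (adjusted p of 0.037 at most). The size shrank to -0.66 with normexp background correction of the median signals followed by quantile normalization (adjusted p = 0.0097).

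Gdf15, a secreted stress cytokine, read 0.77, 0.62 and 0.92 on KO late arrays, against 2.02, 1.67 and 1.37 on WT late arrays. The difference was -0.92 ± 0.24, or 1.89-fold lower in KO late arrays, just within the threshold (adjusted p = 0.048). Its early values were 1.54, 1.42 and 1.27 under the KO label and 1.88, 0.92 and 1.03 in WT. Leaving out any 1 of the 6 late arrays ended the call, with adjusted p between 0.063 and 0.14. The detoxifying enzyme gene Ephx1 had a difference of -0.41 ± 0.13 (adjusted p = 0.075).

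The count of 5 at late passage rested on few arrays. Without WT late replicate 3, KO late replicate 1, KO late replicate 2 or KO late replicate 3 it was 2 each time, and these were Pmaip1 and Dyrk3. Early arrays enter the pooled spread, and the count was 3 without KO early replicate 2 and 8 without WT early replicate 3. Without both KO late arrays that carried Xist, KO late replicates 1 and 2, the count was 0 of 32, with 1 gene called in the whole table, while the differences of Mdm2 and Dyrk3 stayed at -0.63 and -1.46. In that setting KO late is represented by 1 array, assumed to vary like the other groups. Quantile normalization gave 1 member higher and 5 lower, against 0 higher and 5 lower in the main analysis. It turned the split over all genes to 996 higher and 789 lower, against 675 higher and 853 lower, and with normexp before the quantile step the split was 1001 higher and 787 lower.

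**Figure D3:**
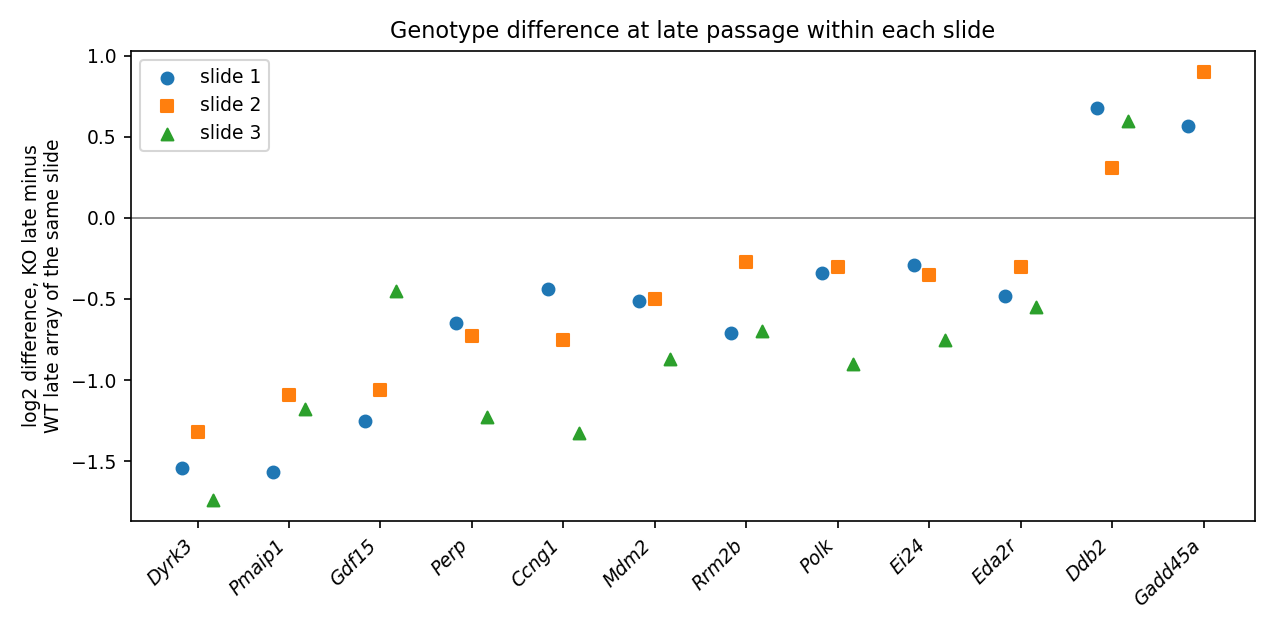
The log2 difference between the KO late and the WT late array of the same slide (vertical axis) is plotted for the 12 members with the largest differences in size, with 1 marker per slide (2 slides for Gadd45a). The 10 genes from Dyrk3 to Eda2r lie below 0 on all 3 slides, and Ddb2 and Gadd45a lie above 0 on every slide plotted. KO late and WT late values do not overlap for these 12 members, so their signs were fixed and only the sizes are informative.

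Markers of other cell types moved with the same arrays. All 18 macrophage markers had a negative difference between KO late and WT late arrays, with a median of -1.15, and Cd68 and Lyz2 passed the test. Their summed signal ran from 38.4 to 85.9 times the 75th percentile on KO late arrays, against 94.5 to 166 on WT late arrays. All 8 kept cartilage markers had a positive difference, with a median of 1.67, and 4 of them passed the test. Their summed signal ran from 26.4 to 42.5 on KO late arrays and from 25.9 to 31.1 on WT late arrays. The 4 kept epithelial markers summed to 0.433 to 0.497 on KO late arrays, against 1.43 to 1.82 on WT late arrays, while the defining Cdh1 and Krt8 were above background on 0 arrays. The 12 markers of dividing cells gave 0 calls, with sums of 41.7 to 46.5 on KO late arrays and 43.2 to 50 on WT late arrays. Of the 12 fibroblast markers, Thy1 (-1.18) and S100a4 (-1.35) were lower and Col3a1 (0.96) was higher on KO late arrays, with sums of 704 to 788 against 650 to 735 on WT late arrays. The muscle marker Des (-2.74) and the neural marker Stmn2 (-2.55) were lower as well, while the defining muscle genes Myog and Myod1 were above background on 0 arrays. Of the 5 kept muscle markers, 2 had a positive and 3 a negative difference (median -0.58, 1 call). The 4 kept neural and glial markers were split 1 positive and 3 negative (median -0.41, 1 call). The part of these cells in the differences of the p53 genes was not tested.

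At early passage, no member differed between the genotypes at the threshold, and the smallest adjusted p was 0.74 (limma). Over all genes, 0.0256% were called higher and 0.0103% lower under the KO label. The members' median was 0.027, against 0.017 over all genes, and 3 of the 32 (9.38%) had an unadjusted p under 0.05, against 5.99% of all genes. These were the death receptor gene Tnfrsf10b at -0.28 ± 0.09, Ei24 at -0.30 ± 0.13 and Apaf1, which builds the apoptosome, at 0.50 ± 0.22. Their adjusted p was 0.74 each. Mdm2 and Ccng1, lower at late passage, differed here by -0.03 ± 0.13 and 0.05 ± 0.21, Pmaip1 by -0.21 ± 0.20, Dyrk3 by 0.07 ± 0.23 and Gdf15 by 0.13 ± 0.24. On KO early arrays, several targets were spread widely, with replicate 1 high and replicate 3 low for Mdm2, Ccng1, Pmaip1, Dyrk3 and Perp.

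Between the passages, the KO-labelled fibroblasts showed 10 members lower and 3 higher at late than at early passage. This is 31.2% lower and 9.38% higher, against 9% and 9.95% of all genes. The median difference of the members was -0.28, against -0.047 over all genes. The late values lay below all early values for 19 members (59.4%, against 29.3% of all genes) and above them for 6 members (18.8%, against 22.6%). In WT fibroblasts, 2 members were lower and 2 higher, 6.25% each, against 4.37% and 6.22% of all genes, with a median of -0.0077. Both passage comparisons are given side by side below, and their difference was tested apart. KO late replicates 1 and 2 carried Xist and the KO early arrays did not, so the arrays compared under the KO label differed in more than passage.

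**Figure D4:**
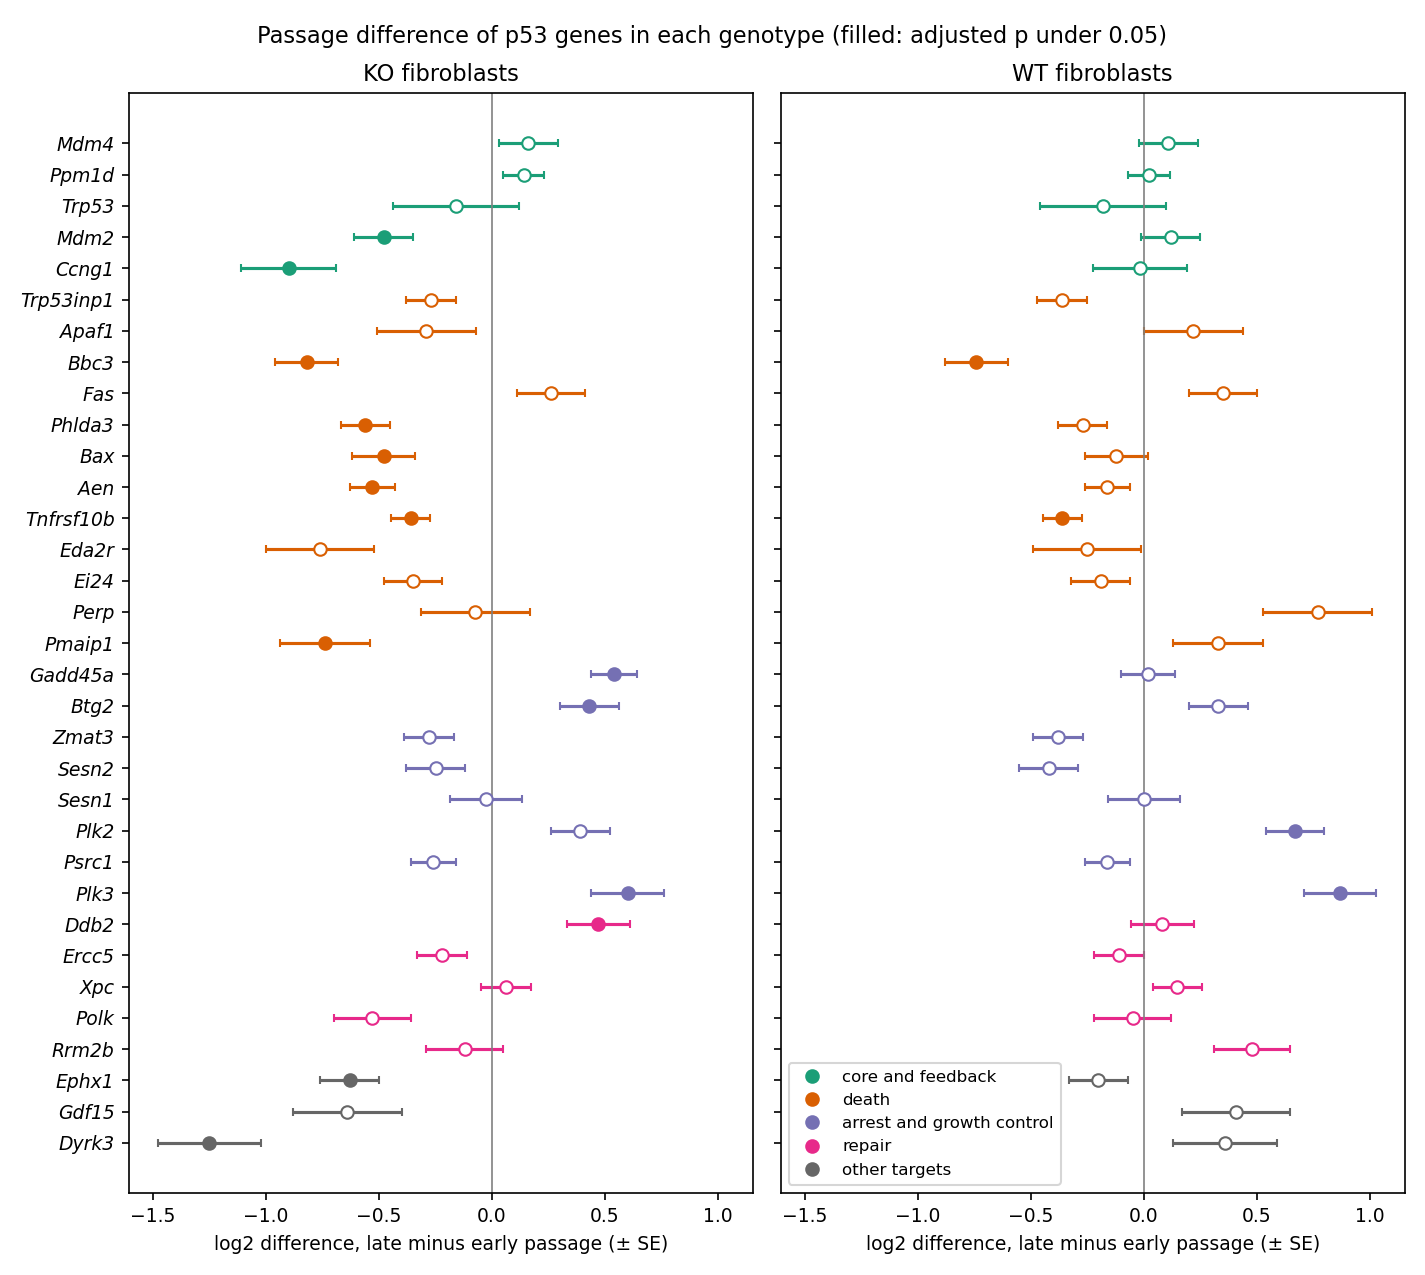
The log2 difference of late minus early passage (horizontal axis, ± SE) is plotted for each of the 33 members in KO fibroblasts (left panel) and WT fibroblasts (right panel), coloured by role, with filled points where the adjusted p was under 0.05 (Gadd45a from 11 arrays). Bbc3 and Tnfrsf10b lie left of 0 with filled points in both panels and Plk3 right of 0, while Dyrk3 at -1.25 is filled in the KO panel and open at 0.36 in the WT panel.

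Of the 12 death genes, 6 (50%) fell with passage under the KO label. So did 2 of the 5 core and feedback genes (40%) and 2 of the 3 other targets (66.7%), against 9% of all genes. These shares by role are descriptive as well. Bbc3 read 1.42, 1.56 and 1.15 on KO late arrays, against 2.12, 2.19 and 2.29 on KO early arrays. It was 1.77-fold lower at late passage (-0.82 ± 0.14, adjusted p = 0.0042). In WT it read 1.32, 1.41 and 1.60 at late passage, against 1.98, 2.41 and 2.16 at early passage, and was 1.67-fold lower (-0.74 ± 0.14, adjusted p = 0.011). PUMA transcripts fell under both labels, with no overlap between the passages in either, and the KO response minus the WT response was -0.09 ± 0.20.

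Tnfrsf10b, the mouse TRAIL receptor gene, fell in both as well. It read 2.01, 2.02 and 2.11 on KO late arrays, against 2.48, 2.38 and 2.36 on KO early arrays (-0.36 ± 0.09, adjusted p = 0.018). WT late arrays read 2.28, 2.27 and 2.43, against 2.58, 2.67 and 2.81 on WT early arrays (-0.36 ± 0.09, adjusted p = 0.030). Either difference amounted to 1.28-fold lower at late passage.

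The other death genes that fell in KO fibroblasts did so by smaller and larger amounts. Pmaip1 differed by -0.74 ± 0.20 (adjusted p = 0.031) and was 1.67-fold lower at late passage, while in WT its difference was 0.33 ± 0.20 (adjusted p = 0.31). Phlda3, a repressor of AKT signalling, read 5.25, 5.15 and 5.29 on KO late arrays, against 6.02, 5.71 and 5.64 on KO early arrays (-0.56 ± 0.11, adjusted p = 0.0070). On WT late arrays it read 5.51, 5.46 and 5.43, against 5.66, 5.69 and 5.86 on WT early arrays (-0.27 ± 0.11, adjusted p = 0.13). Its KO difference was -0.37 under quantile normalization and kept its call.

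Aen, the apoptosis-enhancing nuclease gene, read 4.45, 4.51 and 4.46 on KO late arrays, against 5.13, 4.95 and 4.91 on KO early arrays (-0.53 ± 0.10, adjusted p = 0.0059). WT late arrays read 4.74, 4.74 and 4.72 and WT early arrays 4.92, 5.04 and 4.72, which met at the lowest early value (-0.16 ± 0.10, adjusted p = 0.31). Its second probe gave -0.50 in KO and -0.24 in WT fibroblasts. Bax read 4.17, 4.26 and 4.04 on KO late arrays, against 4.82, 4.60 and 4.48 on KO early arrays (-0.48 ± 0.14, adjusted p = 0.039). In WT, Bax read 4.47, 4.56 and 4.17 at late passage and 4.49, 4.72 and 4.33 at early passage, with wide overlap (-0.12 ± 0.14, adjusted p = 0.63). Eda2r, an X-linked receptor gene, just missed the threshold in KO fibroblasts (-0.76 ± 0.24, adjusted p = 0.051).

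Of the core and feedback genes, 2 fell with passage under the KO label (40%, against 9% of all genes). Ccng1 was 1.87-fold lower (-0.90 ± 0.21, adjusted p = 0.016) and Mdm2 was 1.39-fold lower (-0.48 ± 0.13, adjusted p = 0.033) at late passage. In WT the passages overlapped for both, with differences of -0.02 ± 0.21 for Ccng1 and 0.12 ± 0.13 for Mdm2. With the replicate block, the adjusted p of Mdm2 in KO fibroblasts was 0.054. Trp53 differed by -0.16 ± 0.28 in KO and by -0.18 ± 0.28 in WT fibroblasts (adjusted p = 0.73 and 0.71).

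Of the 7 tested genes of arrest and growth control, 2 rose with passage in KO fibroblasts, Plk3 and Btg2 (28.6%, against 9.95% of all genes). In WT fibroblasts 2 rose, Plk3 and Plk2 (28.6%, against 6.22%). In either, 0 fell, against 9% of all genes in KO and 4.37% in WT. Plk3, a polo-like kinase of the stress response, read 0.36, 0.29 and 0.36 on KO late arrays, against 0.08, -0.30 and -0.57 on KO early arrays (0.60 ± 0.16, adjusted p = 0.028). In WT it read 0.89, 0.57 and 0.61 at late passage, against -0.29, -0.27 and 0.02 at early passage, and was 1.83-fold higher (0.87 ± 0.16, adjusted p = 0.011). Plk2, its relative, read 1.05, 1.08 and 1.05 on KO late arrays, against 0.71, 0.71 and 0.60 on KO early arrays, without overlap but short of the threshold (0.39 ± 0.13, adjusted p = 0.063). In WT it read 1.19, 0.92 and 1.51 at late passage, against 0.44, 0.54 and 0.61 at early passage, and was 1.60-fold higher (0.67 ± 0.13, adjusted p = 0.012).

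Btg2, an antiproliferative gene, read 1.42, 1.47 and 1.32 on KO late arrays, against 1.01, 0.97 and 0.93 on KO early arrays (0.43 ± 0.13, adjusted p = 0.044). On WT late arrays it read 1.16, 1.04 and 1.60, against 0.87, 0.92 and 1.03 on WT early arrays (0.33 ± 0.13, adjusted p = 0.14). With the replicate block, the adjusted p in KO fibroblasts was 0.057. Gadd45a was 1.45-fold higher at late passage in KO fibroblasts (0.54 ± 0.10, adjusted p = 0.0089, fitted on 11 arrays), and its WT difference was 0.02 ± 0.12 without the outlier spot. The fit to the authors' deposited table, whose spread takes in that spot, gave 0.55 ± 0.81 in KO fibroblasts (adjusted p = 0.67). Zmat3 and Sesn2 had negative differences in both genotypes, of -0.28 ± 0.11 and -0.25 ± 0.13 in KO and -0.38 ± 0.11 and -0.42 ± 0.13 in WT fibroblasts, and neither passed the threshold. With the replicate block, Zmat3 was called lower in WT fibroblasts (adjusted p = 0.034).

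Among the repair genes and the other targets, Ddb2 rose in KO fibroblasts and Dyrk3 and Ephx1 fell. Ddb2 read -2.22, -2.16 and -2.05 on KO late arrays, against -2.87, -2.59 and -2.37 on KO early arrays (0.47 ± 0.14, adjusted p = 0.047). With normexp and quantile normalization that difference was 0.24, and it was called. In WT its difference was 0.08 ± 0.14 (adjusted p = 0.74). Dyrk3 was 2.37-fold lower at late passage in KO fibroblasts (-1.25 ± 0.23, adjusted p = 0.0061), or -0.58 with normexp and quantile normalization, while its WT difference was 0.36 ± 0.23 (adjusted p = 0.33). Ephx1, whose enzyme hydrolyses epoxides, read 5.16, 4.93 and 5.33 on KO late arrays, against 5.91, 5.70 and 5.69 on KO early arrays (-0.63 ± 0.13, adjusted p = 0.0088). WT late arrays read 5.42, 5.46 and 5.77 and WT early arrays 5.71, 5.75 and 5.79 (-0.20 ± 0.13, adjusted p = 0.33). The second, dimmer probe of Ephx1 gave -0.42 in KO and -0.16 in WT fibroblasts.

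The count of 13 in KO fibroblasts fell to 6 without KO early replicate 1, to 6 without KO early replicate 2, and to 5, 6 and 7 without KO late replicates 1, 2 and 3. It was 8 with Xist as a covariate and 0 without both KO late arrays that carried Xist. Bbc3, Dyrk3, Aen, Phlda3 and Ephx1 were called in every fit that left out 1 early or late KO array. The count of 4 in WT fibroblasts became 7 without WT early replicate 1. In KO fibroblasts quantile normalization gave 3 members higher and 7 lower, and with normexp before it 4 higher and 8 lower, against 3 higher and 10 lower in the main analysis. All 12 markers of dividing cells had a negative passage difference in KO fibroblasts, with a median of -0.25 and 2 calls, and 10 of 12 had one in WT, with a median of -0.23 and 0 calls. Their summed signal was 41.7 to 46.5 on KO late and 53.6 to 54.3 on KO early arrays, and 43.2 to 50 on WT late and 51 to 54.4 on WT early arrays. Other cell type markers moved more between the passages. In KO fibroblasts Des (-4.33), Krt18 (-2.67), Fap (-2.58) and Thy1 (-1.75) were lower and the cartilage gene Cnmd (6.35) was higher at late passage. Their lists split as follows. Of the 12 fibroblast markers, 3 had a positive and 9 a negative difference in KO (median -0.20, 3 called lower). In WT, 1 had a positive and 11 a negative difference (median -0.40, 2 called lower). Fibroblast sums were 704 to 788 on KO late and 849 to 901 on KO early arrays. They were 650 to 735 on WT late and 790 to 937 on WT early arrays. Of the 4 kept epithelial markers, 1 had a positive and 3 a negative difference in KO (median -0.90, 2 called lower). In KO, 6 cartilage markers had a positive and 2 a negative difference (median 0.96, 3 called higher). Of the muscle markers, 1 had a positive and 4 a negative difference (median -0.21, 1 called lower). In WT fibroblasts Fap (-2.16), Des (-1.91) and the cartilage genes Col9a1 (-2.86) and Comp (-2.17) were lower. There, 3 cartilage markers had a positive and 5 a negative difference (median -0.47, 2 called lower). The endothelial marker Esam was higher in KO (2.27) and in WT (2.52), while the other 3 kept endothelial markers had negative differences in both. In WT, 17 of 18 macrophage markers had a positive difference, with a median of 0.89 and 1 call. In KO fibroblasts 5 of 18 had one, with a median of -0.20 and 0 calls. The macrophage sums were 38.4 to 85.9 on KO late and 62.1 to 82.5 on KO early arrays, and 94.5 to 166 on WT late and 51.3 to 131 on WT early arrays. The part of these markers' cells in the passage differences of the p53 genes was not tested.

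Whether the passage response differed between the genotypes was tested as the KO response minus the WT response. No member passed the threshold, against 0.0205% of all genes called higher and 0.0666% called lower, and 9 of 32 (28.1%) had an unadjusted p under 0.05, against 13.9% of all genes (limma). Nearest was Dyrk3, whose responses differed by -1.61 ± 0.33 (adjusted p = 0.11), followed by Pmaip1 at -1.07 ± 0.29 (adjusted p = 0.18). Mdm2 gave -0.60 ± 0.19 (adjusted p = 0.24), Gdf15 -1.05 ± 0.34 (adjusted p = 0.25) and Ccng1 -0.89 ± 0.30 (adjusted p = 0.26). The within-slide values of these 5 genes were negative on all 3 slides, from -0.46 to -2.41. These genes were picked as lower on KO late arrays, whose values enter this difference, so the shared sign is no separate support. Without KO early replicate 3 the count was 1, Dyrk3 (adjusted p = 0.030). The calls made in KO and not in WT fibroblasts are therefore not shown to differ between the genotypes. Over all genes, the main analysis called 4 higher and 13 lower, quantile normalization 8 higher and 5 lower, and normexp followed by quantile normalization 11 higher and 7 lower.

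Cdkn1a, the p53 target that encodes the cell cycle inhibitor p21, read 2.93, 3.06 and 2.83 on KO late arrays, against 3.58, 3.49 and 3.73 on WT late arrays, and was 1.58-fold lower (-0.66 ± 0.14, adjusted p = 0.022). Its early difference was -0.32 ± 0.14 (adjusted p = 0.74). The late call was lost when WT late replicate 3 or any KO late replicate was left out (limma, adjusted p of at most 0.087). With no filter on dim probes it was lost as well (adjusted p = 0.06).

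Of 26 further p53 targets, 24 were tested, and 1 rose and 2 fell at late passage under the KO label, with a median of -0.25 and 20 of 24 differences negative. This is 4.17% higher and 8.33% lower, against 3.46% and 4.37% of all genes. Steap3, a metalloreductase gene, was 3.02-fold higher in KO late than in WT late arrays (1.59 ± 0.38, adjusted p = 0.034). Crip2, a LIM-domain protein gene, was 1.76-fold lower (-0.82 ± 0.19, adjusted p = 0.032), and Gtse1, which restrains p53 in dividing cells, was 1.54-fold lower (-0.62 ± 0.11, adjusted p = 0.012). At early passage 0 of the 24 were called. At late against early passage, 1 was higher and 6 lower in KO fibroblasts (4.17% and 25%, against 9.95% and 9% of all genes). In WT fibroblasts 1 was higher and 1 lower (4.17% each, against 6.22% and 4.37%). In the test of the passage responses 0 of the 24 were called (limma).

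Of 28 genes that act on p53, such as its kinases and acetylases, 26 were tested, and 1 rose and 1 fell at late passage under the KO label. This is 3.85% each way, near the 3.46% and 4.37% of all genes, and their median difference was 0.057. Hipk2, a kinase that phosphorylates p53 in the death response, was 2-fold lower in KO late than in WT late arrays (adjusted p = 0.015). Nfyb, a subunit of the CCAAT-binding factor NF-Y, was 1.38-fold higher (0.46 ± 0.07, adjusted p = 0.0084). The damage kinase gene Chek1 and the repair gene Brca1 had no kept probe. At late against early passage, 1 of the 26 was higher and 0 lower in KO fibroblasts (3.85% and 0%, against 9.95% and 9% of all genes). In WT fibroblasts 0 were called, against 6.22% of all genes higher and 4.37% lower.

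Where a member had a second probe, the late genotype difference mostly matched the probe used. It was -0.22 against -0.26 for Aen, -0.50 against -0.45 for Eda2r, -0.51 on both probes for Polk, -0.53 against -0.41 for Ephx1 and 0.51 against 0.19 for Mdm4. Trp53inp1 was the exception in sign, and the second probe of Rrm2b was above background on only 2 arrays.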

How the data were processed

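Labelled RNA from 12 fibroblast cultures (100 ng each) was hybridised to 1-colour arrays. Per the file headers, the deposited intensities were background-subtracted and detrended by the authors with Agilent Feature Extraction 11.5.1.1. Version 10.7.3.1 stands in the submitters' processing notes. The authors' deposited value table holds log2 values of 22887 probes, from its values scaled to the 75th percentile and centred per probe, and served as an alternative.

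Intensities of repeated spots were averaged, taken to log2 and reduced by the 75th percentile of each array. Probes well above background on all 3 arrays of a group were kept, 107 with an outlier spot were left out, and the probe with the highest mean stood for a gene (19507 genes). Accessions were named through RefSeq (27969 of 28290 probes matched). limma 3.58.1 in R 4.3.3 fitted 4 group means to all 12 arrays (8 residual degrees of freedom), with Benjamini-Hochberg adjustment over all genes and a threshold of 0.05. The p-values rest on 1 spread per gene pooled over groups, and the number of arrays limits the precision. Over genes, the median SD between replicates was 0.0839 in KO late, 0.16 in WT late, 0.141 in KO early and 0.214 in WT early arrays. With 3 arrays against 3, an exact two-sided permutation test of a single gene cannot go below 0.1. The script was tested on simulated data. Members, roles and lists were chosen with earlier results of these data known. Genes given array by array were Trp53, Mdm2 and members called in any comparison, with Perp and Gadd45a added after their values were seen.

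Same-numbered arrays share a slide. Their deviations correlated at 0.141 to 0.279 between WT early and WT late, where the numbers were taken to pair the samples. Every other pair of groups had at least 1 correlation under 0.1. The main fit held no pairing, so the WT passage tests above are unpaired. The numbers entered only through the replicate block, over all groups. Alternatives were the normalization, background correction, filters, the block, array weights, the probe rule, the authors' values and each array left out.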

Additional observations from a re-analysis of the deposited data

How the results depend on the processing

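Of 22 member differences called in the main analysis, 8 kept their call under every alternative tried and without any single array of the groups compared, leaving aside the removal of both KO late arrays that carried Xist. These were Dyrk3 and Pmaip1 in KO against WT at late passage, Aen, Bbc3, Dyrk3, Ephx1 and Phlda3 in late against early passage in KO, and Plk3 in WT. Of the 22, 12 lost the call without some single array and 14 under another setting, and these overlap. For KO against WT at late passage the count of 5 members was 2 with no filter on dim probes, 8 with probes above background on all arrays, 12 with array weights per group, and 2 to 5 when 1 array of the groups compared was left out, or 2 to 8 over all 12 arrays. Without both KO late arrays that carried Xist, a setting chosen after seeing the data, it was 0. For late against early passage in WT the count of 4 was 2 with only the groups compared, 2 with array weights, and 3 to 7 with any 1 array left out. For late against early passage in KO the count of 13 was 6 with no filter, 20 with array weights, 8 with Xist as a covariate, 0 without both arrays that carried Xist, and 5 to 12 with 1 KO array left out, or 5 to 15 over all 12 arrays. For the passage response the count of 0 was 0 to 1 with any 1 array left out. With the replicate block the counts were 5 at late passage, 5 in WT and 12 in KO. The difference of Trp53 at late passage, -0.08, turned to 0.0042 with Xist as a covariate, 0.072 without both arrays that carried Xist, and 0.016 within slide 3. The causes were not tested. Normexp on mean signals could not be run, since the files hold median signals, which were used instead.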
